A study of Mus musculus with 2 samples.

Results

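The NF-kB group comprised 10 genes, taken by symbol as the 5 subunits of the transcription factor and 5 of its inhibitors or feedback genes, out of 34745 genes in the deposited table. All 10 were found, and all 10 passed the filter of at least 1 CPM (counts scaled to a common library size) in either library. RNA came from 2 libraries of mouse ear skin, 1 labelled KAT8-cKO and 1 labelled WT. KAT8 is a histone acetyltransferase, and cKO stands for a conditional knockout. Ears in both groups had been treated per the labels with 30 mg of cream holding 5% imiquimod (IMQ) on each of 3 days, and were taken on day 4. Imiquimod activates the receptor TLR7, and repeated use gives mouse skin a psoriasis-like inflammation. The cell type in which Kat8 was deleted, the promoter behind the deletion, and the age, strain and number of mice per library are not stated in the sources. Untreated skin was not analysed here.

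NF-kB factors are pairs of Rel family proteins that bind related DNA sites and drive genes of inflammation. In resting cells IkB proteins hold them in the cytoplasm. Signals from TLR, IL-1 and TNF receptors activate the IKK kinases, which mark IkB for destruction and free the factor. Among the first genes it then switches on are those of its own inhibitors, so a falling IkB supply is soon replaced. In epidermis the nuclear IkB protein encoded by Nfkbiz is needed for part of the response of keratinocytes to IL-17 and IL-36.

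With 1 library per genotype there was no replicate check and no test. Every difference describes these 2 libraries, and each interval is a 95% interval for counting error only. The libraries held 13727524 counts (KAT8-cKO) and 12179608 counts (WT), so that 1 count was 0.0689 CPM in the KAT8-cKO-labelled library and 0.0868 CPM in the WT-labelled library. Kat8 itself, whose exons overlap those of another gene, had 351 counts in the KAT8-cKO-labelled library and 219 in the WT-labelled library, so it was not the lower of the pair, with a CPM ratio of 1.27 (interval 1.07 to 1.51). The whole-gene count cannot show whether a part of the gene was deleted. For that reason both libraries are called by their labels. Xist, the RNA of the silenced X chromosome in females, whose exons overlap Tsix, had 6 counts in the KAT8-cKO-labelled library and 11891 in the WT-labelled library, while the Y-linked Eif2s3y had 838 in the KAT8-cKO-labelled library and 0 in the WT-labelled library, so sex and genotype label cannot be told apart. The skin label fitted the keratinocyte gene Krt14, at 12064 CPM in the KAT8-cKO-labelled library and 12587 CPM in the WT-labelled library. Fewer cells of a type and less RNA per cell cannot be told apart in such tissue RNA.

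Of the 10 NF-kB genes, 1 was at least 2-fold lower in the KAT8-cKO-labelled library and none was at least 2-fold higher. The 1 lower gene was Tnfaip3. Over all 15240 genes measured, 8.63% were at least 2-fold lower, 4.56% at least 2-fold higher and 13.2% either, so the share of 1 in 10 was near the background. At 1.5-fold the lower genes were Tnfaip3, Nfkbiz and Nfkbia and none was higher, against 17.2% of all measured genes lower and 12.9% higher. These calls depend on the scaling: with plain CPM, a check added after seeing the data, Nfkbia at a log2 ratio of -0.50 was no longer past 1.5-fold and Zc3h12a at 0.74 was, so that 2 members were lower and 1 was higher, against 13.6% of all genes lower and 19.3% higher. The median log2 ratio of the 10 genes, KAT8-cKO over WT with TMM scaling (a correction for composition) and a pseudocount of 1 CPM, was 0.15. That of all measured genes was 0.01. With plain CPM in place of TMM scaling the median of all genes lay at 0.16, which is not comparable with the TMM value of 0.15 for the 10 genes. Over all genes 964 were then 2-fold higher and 1056 lower, against 695 higher and 1315 lower with TMM.

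**Figure D1:**
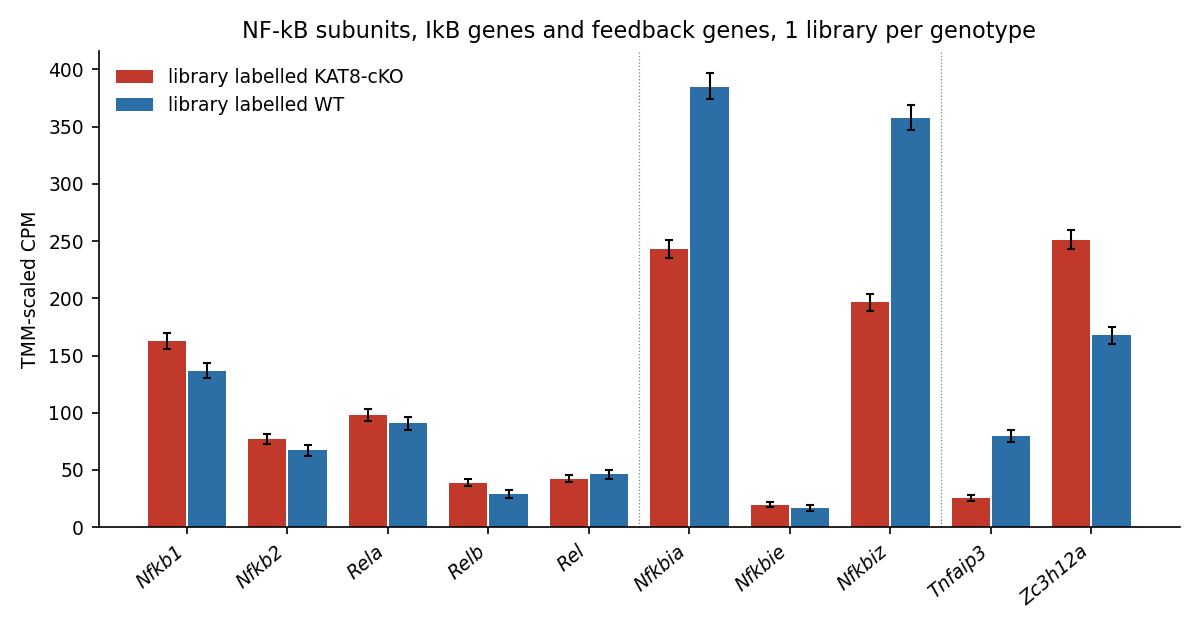
TMM-scaled CPM (vertical axis) of the 10 NF-kB genes in the KAT8-cKO-labelled library (red, left bar) and the WT-labelled library (blue, right bar). Bars are single libraries and error lines are 95% Poisson counting intervals. Nfkbia, Nfkbiz and Tnfaip3 have the lower bar in the KAT8-cKO-labelled library, Zc3h12a has the higher one, and the paired bars of each of the 5 subunits on the left differ by at most 1.34-fold.

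The 5 Rel family subunits had CPM ratios between 0.921 and 1.34. Nfkb1 encodes the precursor p105 and its product p50, a subunit that binds DNA but has no activation domain. It had 2360 counts (163 CPM) in the KAT8-cKO-labelled library and 1575 counts (137 CPM) in the WT-labelled library, a ratio of 1.19 (interval 1.12 to 1.27). Rela encodes p65, the main activating partner of p50. Its counts were 1422 (98.0 CPM) in the KAT8-cKO-labelled library and 1046 (90.8 CPM) in the WT-labelled library, and the interval of the ratio of 1.08 ran from 0.996 to 1.17. Rel encodes c-Rel, an activating subunit used most by lymphoid and myeloid cells. It had 616 counts (42.4 CPM) in the KAT8-cKO-labelled library and 531 counts (46.1 CPM) in the WT-labelled library. The ratio was 0.921 (interval 0.819 to 1.04), and its log2 value of -0.12 became 0.04 with plain CPM. For Rela and Rel the difference between the libraries was within counting error.

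Nfkb2 and Relb belong to the non-canonical arm, in which the kinase NIK triggers processing of the p100 precursor that holds RelB inactive. Nfkb2 had 1120 counts (77.2 CPM) in the KAT8-cKO-labelled library and 775 counts (67.3 CPM) in the WT-labelled library, a ratio of 1.15 (interval 1.05 to 1.26). An exon of Nfkb2 shares 299 bases with one of Psd on the opposite strand, and reads there cannot be assigned without strand. Relb had 562 counts (38.7 CPM) in the KAT8-cKO-labelled library and 332 counts (28.8 CPM) in the WT-labelled library. Its ratio of 1.34 (interval 1.17 to 1.54) was the highest of the subunits. Summed over the 5 subunits the level was 419 CPM in the KAT8-cKO-labelled library and 370 CPM in the WT-labelled library, 1.13 times as high (interval 1.09 to 1.18). Relb per Rela, a ratio within a library that needs no scaling, was 0.395 in the KAT8-cKO-labelled library and 0.317 in the WT-labelled library, and the quotient of these was 1.25 (interval 1.06 to 1.46). Nfkb2 per Nfkb1 was 0.475 in the KAT8-cKO-labelled library and 0.492 in the WT-labelled library, with a quotient interval of 0.861 to 1.08 that holds equality.

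The IkB genes split. Nfkbia encodes IkB-alpha, the inhibitor that is degraded and remade fastest after a signal. It had 3530 counts (243 CPM) in the KAT8-cKO-labelled library and 4436 counts (385 CPM) in the WT-labelled library, which is 1.58-fold lower (interval 1.51 to 1.66). Nfkbiz encodes IkB-zeta, which acts in the nucleus as a co-factor of p50 rather than as a cytoplasmic anchor. It had 2851 counts (196 CPM) in the KAT8-cKO-labelled library and 4124 counts (358 CPM) in the WT-labelled library, and was 1.82-fold lower (interval 1.74 to 1.91). Both stayed within 2-fold, and 17.1% of all measured genes had a log2 ratio at least as far from 0 as that of Nfkbiz. Nfkbie encodes IkB-epsilon, a slower inhibitor of Rela and Rel. It had 286 counts (19.7 CPM) in the KAT8-cKO-labelled library and 190 counts (16.5 CPM) in the WT-labelled library, and its ratio of 1.19 (interval 0.991 to 1.44) was within counting error of 1. The count of Nfkbie per Nfkbia was 0.0810 in the KAT8-cKO-labelled library and 0.0428 in the WT-labelled library, 1.89 times as high (interval 1.56 to 2.30).

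Set against Rela, Nfkbia and Nfkbiz were lower in the KAT8-cKO-labelled library, and Nfkbie was within counting error. Nfkbia per Rela was 2.48 in the KAT8-cKO-labelled library and 4.24 in the WT-labelled library, 1.71-fold lower (interval 1.56 to 1.87). Nfkbiz per Rela was 2.005 in the KAT8-cKO-labelled library and 3.94 in the WT-labelled library, 1.97-fold lower (interval 1.79 to 2.16). Nfkbie per Rela was 0.201 in the KAT8-cKO-labelled library and 0.182 in the WT-labelled library, with a quotient interval of 0.902 to 1.36 that holds equality. The feedback gene Zc3h12a per Rela was 2.56 in the KAT8-cKO-labelled library and 1.85 in the WT-labelled library, 1.39 times as high (interval 1.26 to 1.53). These quotients of raw counts hold under any scaling of the libraries.

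The feedback genes went in opposite directions. Tnfaip3 encodes A20, a ubiquitin-editing enzyme that shuts off signalling from TNF, TLR and IL-1 receptors to IKK. It lies on chromosome 10 from 19000910 to 19015657 on the minus strand (GRCm38). It had 374 counts (25.8 CPM) in the KAT8-cKO-labelled library and 917 counts (79.6 CPM) in the WT-labelled library. That is 3.09-fold lower (interval 2.74 to 3.49), a log2 ratio of -1.59, and 4.69% of all measured genes lay at least as far from 0. Zc3h12a encodes Regnase-1, an RNase that cleaves the mRNAs of Il6, Nfkbiz and other inflammatory genes. It lies on chromosome 4 from 125118423 to 125127840 on the minus strand. It had 3643 counts (251 CPM) in the KAT8-cKO-labelled library and 1932 counts (168 CPM) in the WT-labelled library. The ratio of 1.497 (interval 1.42 to 1.58) stayed within 2-fold, and 30.5% of all measured genes had a log2 ratio at least as far from 0. Zc3h12a per Nfkbiz, an RNase and one of its target mRNAs, was 1.28 in the KAT8-cKO-labelled library and 0.468 in the WT-labelled library, 2.73 times as high (interval 2.53 to 2.94). Zc3h12a per Tnfaip3 was 9.74 in the KAT8-cKO-labelled library and 2.11 in the WT-labelled library, 4.62 times as high (interval 4.04 to 5.29). Of the NF-kB genes Zc3h12a had the highest ratio and Tnfaip3 the lowest, so no other pair of them gives a larger quotient.

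**Figure D2:**
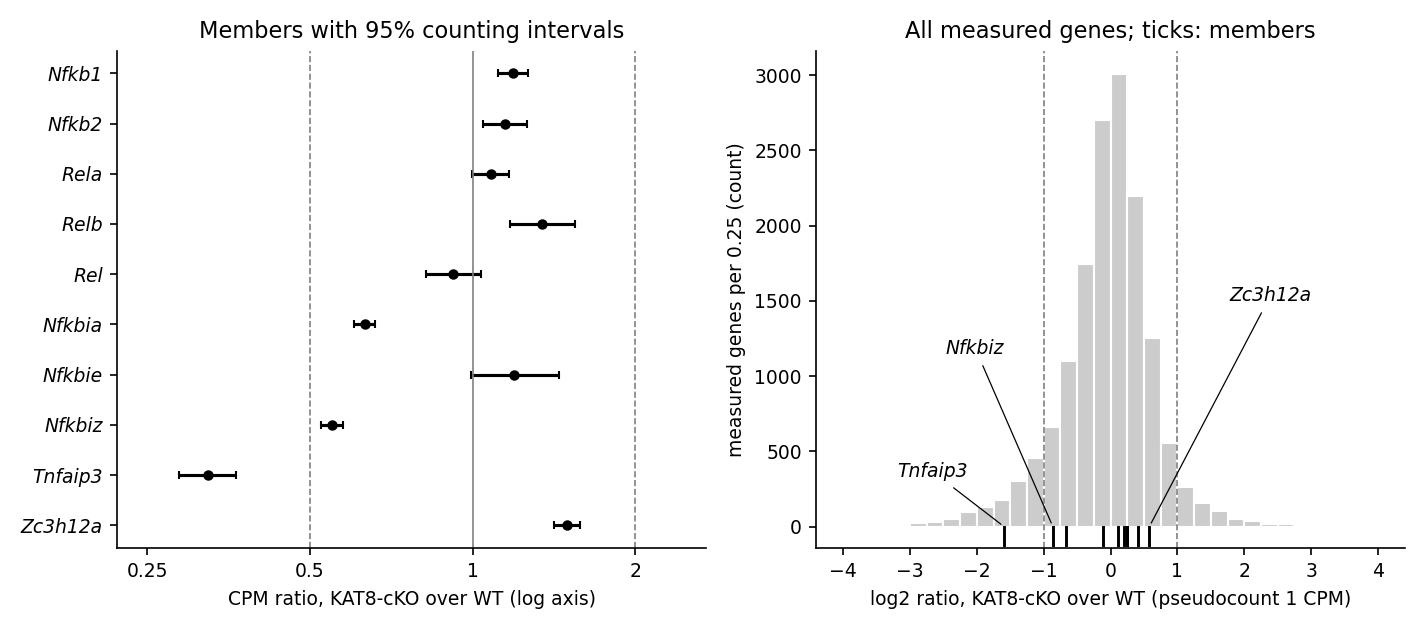
Left, CPM ratio of KAT8-cKO over WT on a log axis for each NF-kB gene, with 95% counting intervals and dashed lines at 2-fold. Right, number of measured genes by log2 ratio with a pseudocount of 1 CPM, shown from -4 to 4, with short black ticks for the NF-kB genes. Tnfaip3 at -1.59 is the only tick beyond a dashed line, and Zc3h12a at 0.58 is the rightmost.

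The promoters of Tnfaip3, Nfkbia, Nfkb2 and Zc3h12a are shown because these feedback genes, lower or higher in the KAT8-cKO-labelled library, and the subunit gene Nfkb2 differ in the NF-kB matches near their starts. RefSeq windows of 250 bases before to 50 after a gene's start (GRCm38.p6, 300 bases, gene strand) were found for 7 of the 10 genes, in 10 windows. Nfkb1, Relb and Nfkbiz had no entry. Capitals mark matches to the NF-kB consensus on either strand.
Tnfaip3: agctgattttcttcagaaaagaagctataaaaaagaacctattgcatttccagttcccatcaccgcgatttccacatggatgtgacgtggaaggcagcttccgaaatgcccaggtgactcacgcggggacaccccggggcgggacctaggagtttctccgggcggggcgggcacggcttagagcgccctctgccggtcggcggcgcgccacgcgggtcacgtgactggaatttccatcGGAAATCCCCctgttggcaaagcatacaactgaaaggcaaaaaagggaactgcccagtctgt
Nfkbia: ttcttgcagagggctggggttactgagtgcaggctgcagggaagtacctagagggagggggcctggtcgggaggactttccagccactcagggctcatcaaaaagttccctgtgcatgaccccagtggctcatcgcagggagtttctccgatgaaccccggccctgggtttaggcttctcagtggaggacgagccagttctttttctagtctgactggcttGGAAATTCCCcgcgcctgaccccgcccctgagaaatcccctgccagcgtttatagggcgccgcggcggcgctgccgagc
Nfkb2: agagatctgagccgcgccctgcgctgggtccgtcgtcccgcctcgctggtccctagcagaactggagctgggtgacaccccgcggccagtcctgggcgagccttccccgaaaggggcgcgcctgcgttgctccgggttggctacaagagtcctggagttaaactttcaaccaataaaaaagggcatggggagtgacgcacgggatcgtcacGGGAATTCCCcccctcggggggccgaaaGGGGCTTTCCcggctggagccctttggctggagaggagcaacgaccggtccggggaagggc
Zc3h12a: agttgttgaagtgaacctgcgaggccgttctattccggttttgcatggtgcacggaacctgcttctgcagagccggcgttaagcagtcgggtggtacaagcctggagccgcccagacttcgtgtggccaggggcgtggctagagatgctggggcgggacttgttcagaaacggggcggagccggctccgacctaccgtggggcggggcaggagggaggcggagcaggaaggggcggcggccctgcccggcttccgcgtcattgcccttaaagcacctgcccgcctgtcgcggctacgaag

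The Tnfaip3 window shown, the first of 2, is chr10:19015361-19015660 and that of Nfkbia chr12:55492598-55492897, both on the minus strand. The Nfkb2 window shown, the first of 3, is chr19:46304487-46304786 on the plus strand, and that of Zc3h12a is chr4:125127832-125128131 on the minus strand. In Tnfaip3 the match GGAAATCCCC lay from -12 to -3 relative to the start, and in Nfkbia GGAAATTCCC lay from -29 to -20, both read on the opposite strand as consensus sites. Nfkb2 held the palindrome GGGAATTCCC from -39 to -30, counted on both strands, and GGGGCTTTCC from -11 to -2. The next Nfkb2 window had GGGACTTTCC from 11 to 20, a run that the remaining Nfkb2 window, which overlaps it, also holds. Rel had overlapping matches in its window, within the run GGGAAATCCCC. The second Tnfaip3 window and the windows of Rela, Nfkbie and Zc3h12a held no match, which says only that these letters are not in them. In all, 4 of the 7 genes had a match, while 6.55% of all 27025 genes with windows held the consensus on either strand. By window it was 6 of 10, the overlapping Nfkb2 windows sharing a site, against 5.80% of all 32851 windows. A match is a description of letters. The genes with a match had CPM ratios of 1.15 (Nfkb2), 0.921 (Rel), 0.632 (Nfkbia) and 0.324 (Tnfaip3). Those without had 1.08 (Rela), 1.19 (Nfkbie) and 1.497 (Zc3h12a). Any bearing of the matches on the ratios was not tested.

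Levels of different genes were compared as CPM per kilobase of exon. In the KAT8-cKO-labelled library the order ran Nfkbia (151), Zc3h12a (87.1), Nfkbiz (39.1), Rela (31.9), Nfkb2 (16.8), Nfkb1 (13.5), Relb (9.97), Nfkbie (6.47), Rel (5.69) and Tnfaip3 (3.57 CPM per kilobase). In the WT-labelled library it ran Nfkbia (239), Nfkbiz (71.3), Zc3h12a (58.2), Rela (29.6), Nfkb2 (14.7), Nfkb1 (11.3), Tnfaip3 (11.0), Relb (7.42), Rel (6.17) and Nfkbie (5.42 CPM per kilobase). Zc3h12a thus stood above Nfkbiz in the KAT8-cKO-labelled library and below it in the other, and Tnfaip3 was last of the 10 in the KAT8-cKO-labelled library and seventh in the WT-labelled library. Nfkbie and Rel did not differ beyond counting error in the KAT8-cKO-labelled library. Nor, in the WT-labelled library, did Nfkb1 and Tnfaip3, Relb and Rel, or Rel and Nfkbie. With the length of the longest transcript Nfkb1 stood at 39.2 CPM per kilobase in the KAT8-cKO-labelled library and 33.0 in the WT-labelled library, within counting error of Rela in both. Nfkbia ranked among the more abundant transcripts, with 98.2% of measured genes at or below its level in the KAT8-cKO-labelled library and 98.6% in the WT-labelled library.

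**Figure D3:**
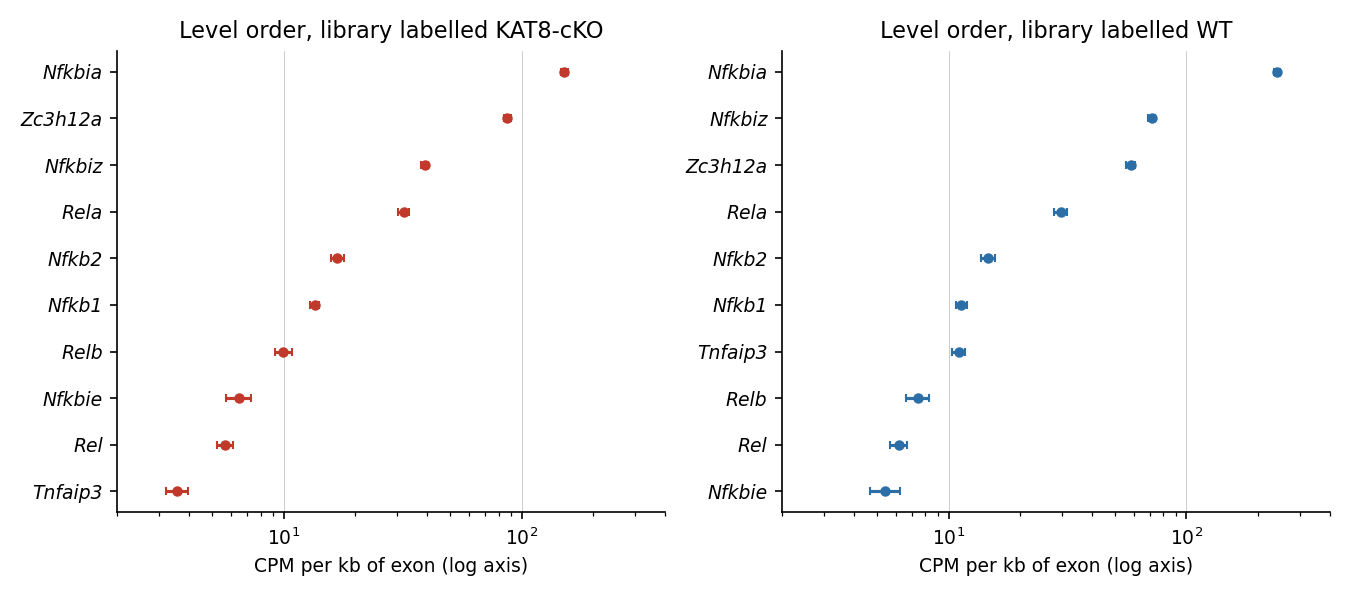
CPM per kilobase of exon on a log axis for the NF-kB genes, sorted from the highest at the top, in the KAT8-cKO-labelled library (left) and the WT-labelled library (right). Points are single libraries with 95% Poisson counting intervals. Nfkbia leads in both, and Tnfaip3 stands at 3.57 on the left and 11.0 on the right.

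Within the summed per-length level of the 5 subunits, Rela made up 41.0% in the KAT8-cKO-labelled library and 42.7% in the WT-labelled library. Nfkb2 made up 21.6% in the KAT8-cKO-labelled library and 21.2% in the WT-labelled library, and Nfkb1 17.3% in the KAT8-cKO-labelled library and 16.4% in the WT-labelled library. Relb took 12.8% in the KAT8-cKO-labelled library and 10.7% in the WT-labelled library, and Rel 7.30% in the KAT8-cKO-labelled library and 8.93% in the WT-labelled library. The order of the subunits by share was the same in both libraries with these exon lengths. Shares and order depend on the length used for Nfkb1, whose exons cover 12061 bases but whose longest transcript has 4149. With the longest transcript Nfkb1 held 34.7% in the KAT8-cKO-labelled library and 33.3% in the WT-labelled library, and Rela 32.0% in the KAT8-cKO-labelled library and 33.8% in the WT-labelled library, so that Nfkb1 led in the KAT8-cKO-labelled library and Rela in the WT-labelled library.

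Around the members, 97 of 101 further genes from 9 pathway lists were measured. Of these 14 were at least 2-fold lower and 4 at least 2-fold higher in the KAT8-cKO-labelled library, with a median log2 ratio of -0.13. Over all measured genes 8.63% were at least 2-fold lower and 4.56% at least 2-fold higher. None of the 12 genes of the IKK complex and its kinases was 2-fold apart, and their median of -0.09 became 0.07 with plain CPM. Their log2 ratios ran from -0.77 for Ripk1, a kinase of the TNF receptor complex, to 0.55 for Ikbkg, the regulatory subunit of IKK. Past 1.5-fold, 3 were lower (Map3k8, Ripk1 and Tank) and none was higher with TMM scaling. With plain CPM 1 was lower (Ripk1) and 3 were higher (Ikbkg, Map3k7 and Tab1). Over all measured genes the shares were 17.2% lower and 12.9% higher with TMM, and 13.6% lower and 19.3% higher with plain CPM. Ripk1 had 373 counts in the KAT8-cKO-labelled library and 513 in the WT-labelled library, a CPM ratio of 0.577 (interval 0.504 to 0.661). Exons of Ripk1 and Ikbkg overlap those of other genes, and Ikbkg lies on the X chromosome. Ikbkb, the catalytic IKK-beta, had 1114 counts in the KAT8-cKO-labelled library and 727 in the WT-labelled library, a CPM ratio of 1.22 (interval 1.11 to 1.34). Tab2, which links ubiquitin chains to the kinase TAK1, had 1692 counts in the KAT8-cKO-labelled library and 1136 in the WT-labelled library, a ratio of 1.18 (interval 1.10 to 1.28).

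The list of adaptors and kinases that act below TLR and IL-1 receptors held 12 genes, of which Tlr7 is the 1 receptor. None was 2-fold apart, against 13.2% of all measured genes. The log2 ratios of the list ran from -0.99 (Tlr7) to 0.71 (Irak1), with a median of -0.31 that became -0.15 with plain CPM. Past 1.5-fold, 5 were lower (Irak2, Irak3, Tirap, Tlr7 and Traf6) and 1, Irak1, was higher. Over all measured genes 17.2% were lower and 12.9% higher at 1.5-fold. Myd88 is the adaptor shared by most TLR and by the IL-1 receptor, and its exons overlap those of another gene. It had 1568 counts in the KAT8-cKO-labelled library and 1290 in the WT-labelled library, a ratio of 0.965 (interval 0.896 to 1.04). Tlr7, the imiquimod receptor, was chosen after its value was seen. It had 80 counts in the KAT8-cKO-labelled library and 138 in the WT-labelled library. Its log2 ratio of -0.99 was just inside the 2-fold line. Tlr7 lies on the X chromosome, and sex and genotype label cannot be told apart here. None of 10 measured genes of the non-canonical arm was 2-fold apart, and their median was 0.43. Ltbr, the lymphotoxin beta receptor, had 2085 counts in the KAT8-cKO-labelled library and 1248 in the WT-labelled library, a ratio of 1.33 (interval 1.24 to 1.42). Birc3, a ubiquitin ligase that limits NIK and is itself induced by NF-kB, had 861 counts in the KAT8-cKO-labelled library and 1052 in the WT-labelled library, 1.54-fold lower (interval 1.41 to 1.69).

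The other IkB genes had ratios on both sides of 1, with none of 4 beyond 2-fold and a median of -0.02 that became 0.14 with plain CPM. Nfkbid, which encodes the nuclear protein IkB-NS, had 226 counts in the KAT8-cKO-labelled library and 315 in the WT-labelled library, 1.76-fold lower (interval 1.48 to 2.09). Bcl3, a nuclear partner of p50 and p52, had 1618 counts in the KAT8-cKO-labelled library and 932 in the WT-labelled library, a ratio of 1.38 (interval 1.27 to 1.495). The log2 ratio was -0.16 for Nfkbib, the gene of IkB-beta, and 0.13 for Nfkbil1. Exons of Bcl3, Nfkbib and Nfkbil1 overlap those of other genes.

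Of 21 other negative feedback genes 2 were lower and none higher. That was near the background of 8.63% lower and 4.56% higher over all measured genes. The median of -0.26 became -0.10 with plain CPM. Dusp1, a phosphatase of MAP kinases, had 1743 counts in the KAT8-cKO-labelled library and 6318 in the WT-labelled library, 4.57-fold lower (interval 4.33 to 4.82). Its exons share 11 bases with another gene. Zfp36 encodes tristetraprolin, which speeds the decay of AU-rich mRNAs. It had 2072 counts in the KAT8-cKO-labelled library and 4499 in the WT-labelled library, 2.74-fold lower (interval 2.60 to 2.88). Both pairs of Tnfaip3 with these genes were chosen after the values were seen. Tnfaip3 per Dusp1 was 0.215 in the KAT8-cKO-labelled library and 0.145 in the WT-labelled library, 1.48 times as high (interval 1.29 to 1.69). Tnfaip3 per Zfp36 was 0.181 in the KAT8-cKO-labelled library and 0.204 in the WT-labelled library, and the interval of the quotient, 0.775 to 1.01, held equality. In the list of immediate early and heat shock genes 4 of 9 were lower, led by Fosb and Fos at 7.04-fold and 4.78-fold, with a median of -0.73.

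**Figure D4:**
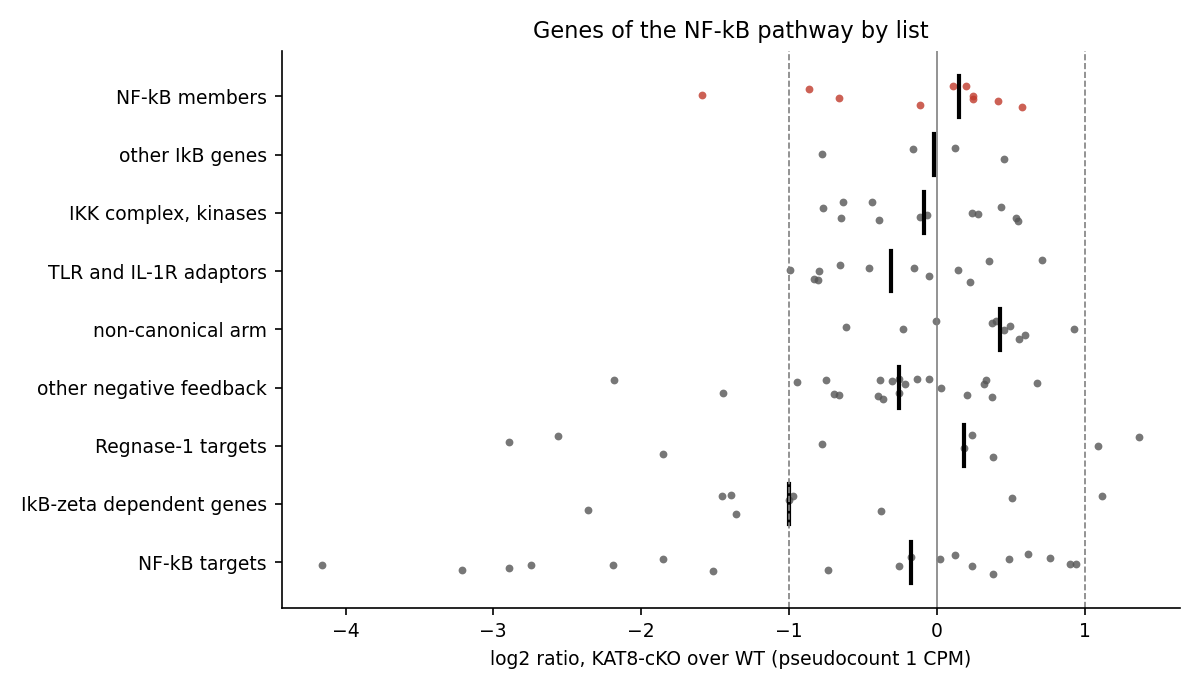
Log2 ratio of KAT8-cKO over WT (horizontal axis, pseudocount 1 CPM) for each measured gene of the NF-kB group (red) and of 8 of the 9 pathway lists (grey), 1 row per list. Black bars are list medians and dashed lines mark 2-fold. The kinase, adaptor and non-canonical rows stay inside the lines, while the target rows reach from -4.16 to 1.37.

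Of 19 NF-kB target genes 7 were lower and none higher, against 8.63% lower and 4.56% higher over all measured genes. The median of the 19 was -0.17, which became -0.01 with plain CPM. Nos2, the inducible nitric oxide synthase, had 403 counts in the KAT8-cKO-labelled library and 5898 in the WT-labelled library, 18.4-fold lower (interval 16.7 to 20.4). The myeloid chemokine genes Ccl3, Cxcl2 and Ccl4 were 9.80-fold, 7.44-fold and 7.04-fold lower. The remaining 3 were Il1b, Ptgs2 and Vcam1, of which Il1b and Vcam1 share exon bases with other genes. In the same list Icam1, an adhesion molecule gene chosen after its value was seen, had 1613 counts in the KAT8-cKO-labelled library and 662 in the WT-labelled library, a ratio of 1.93 (interval 1.77 to 2.12).

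Of 9 measured mRNAs known as targets of Regnase-1, 3 were lower and 2 were higher. Over all measured genes 8.63% were at least 2-fold lower and 4.56% at least 2-fold higher. The median of the 9 mRNAs was 0.18, which became -0.77 with a filter of 5 CPM. Tnfrsf4, the gene of the T cell co-stimulatory receptor OX40, had 114 counts in the KAT8-cKO-labelled library and 28 in the WT-labelled library, 3.23 times as high (interval 2.12 to 5.08), and the other higher gene was Icos with 46 counts in the KAT8-cKO-labelled library and 11 in the WT-labelled library. Cxcl2, Cxcl3 and Ptgs2 were lower, Cxcl3 by 5.96-fold. Il6, the best known of these targets, had 65 counts in the KAT8-cKO-labelled library and 42 in the WT-labelled library, a ratio of 1.23 whose interval ran from 0.821 to 1.86. Il2 had 0 counts in both libraries. Of 9 genes that depend on IkB-zeta, 4 were lower and 1 was higher, and the median of -0.998 was the value of S100a9. The antimicrobial genes Defb4 and Lcn2 were 6.61-fold and 2.74-fold lower, S100a8 2.62-fold and Il1f9, which encodes IL-36 gamma, 2.58-fold. Ccl20, the attractant for CCR6-bearing cells, had 950 counts in the KAT8-cKO-labelled library and 341 in the WT-labelled library, 2.21 times as high (interval 1.95 to 2.51). The target lists share genes with each other, and S100a8 and S100a9 also stand in the neutrophil list.

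The 3 members with the lowest ratios lay in a library whose marker lists also differed. Over all measured genes 8.63% were at least 2-fold lower and 4.56% at least 2-fold higher. Of 11 measured neutrophil genes 9 were lower and none higher, with summed levels of 5096 CPM in the KAT8-cKO-labelled library and 14150 CPM in the WT-labelled library. Of 10 monocyte and macrophage genes 6 were lower, with sums of 1023 CPM in the KAT8-cKO-labelled library and 2678 CPM in the WT-labelled library. The 5 pan-leukocyte genes summed to 561 CPM in the KAT8-cKO-labelled library and 1155 CPM in the WT-labelled library, with 3 lower. Dendritic and Langerhans cell genes went the other way, 6 of 8 higher, at 226 CPM in the KAT8-cKO-labelled library and 85.8 CPM in the WT-labelled library, as did 4 of 7 T cell genes, at 34.7 CPM in the KAT8-cKO-labelled library and 13.5 CPM in the WT-labelled library. Suprabasal keratinocyte genes were lower in 6 of 8 cases, at 2795 CPM in the KAT8-cKO-labelled library and 6563 CPM in the WT-labelled library, and basal ones were higher in 2 of 8, at 27567 CPM in the KAT8-cKO-labelled library and 22862 CPM in the WT-labelled library. In the specimens all 6 skeletal muscle genes were lower, at 1374 CPM in the KAT8-cKO-labelled library and 10011 CPM in the WT-labelled library. So were 5 of 6 adipocyte genes, at 100 CPM (KAT8-cKO) and 1565 CPM (WT), and all 6 red cell genes, at 9.03 CPM (KAT8-cKO) and 172 CPM (WT). All 7 sebaceous genes were higher, at 7621 CPM (KAT8-cKO) and 1647 CPM (WT). None of 6 endothelial genes and none of 2 measured B cell genes was 2-fold apart, and of 7 fibroblast genes 1 was higher and 1 lower. No neutrophil, monocyte, T cell or keratinocyte marker was at 0 counts in either library. The dendritic marker Xcr1 was at 0 in the WT-labelled library and the red cell marker Slc4a1 in the KAT8-cKO-labelled library. The part of these cell types in the differences of the NF-kB genes was not tested.

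The counts of these 3 members, taken for their low ratios, were also divided by those of every measured marker of 6 lists. A quotient of KAT8-cKO over WT was called lower or higher where its counting interval left out 1. Each quotient only sets the ratio of a member against that of a marker. Members with low ratios were thus bound to come out lower per markers with higher ratios, and no cause was tested. Tnfaip3 was lower per 2, higher per 6 and within the interval per 3 of the 11 neutrophil genes, with quotients from 0.647 per S100a9 to 6.21 per Ngp. Nfkbiz and Nfkbia were each higher per 10 of these 11. Per pan-leukocyte gene Tnfaip3 was lower in 4 of 5 cases, Nfkbiz was lower in 1 and higher in 3, and Nfkbia was lower in 1 and higher in 4. Per monocyte and macrophage gene Tnfaip3 was lower in 6 of 10 cases and higher in 2, Nfkbiz was lower in 4 and higher in 5, and Nfkbia was lower in 3 and higher in 6. All 3 members were lower per each of the 8 basal keratinocyte genes, with quotients nearest 1 for Krt14, at 0.338 for Tnfaip3, 0.573 for Nfkbiz and 0.659 for Nfkbia. Per suprabasal gene the calls were divided, Tnfaip3 being lower in 4 of 8 cases and higher in 4, and Nfkbiz and Nfkbia each lower in 2 and higher in 6. Per dendritic or Langerhans gene Tnfaip3 was lower in 8 of 8 cases and Nfkbiz and Nfkbia each in 7. Within the neutrophil, monocyte and suprabasal lists the direction of Tnfaip3 thus differed with the marker used.

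**Figure D5:**
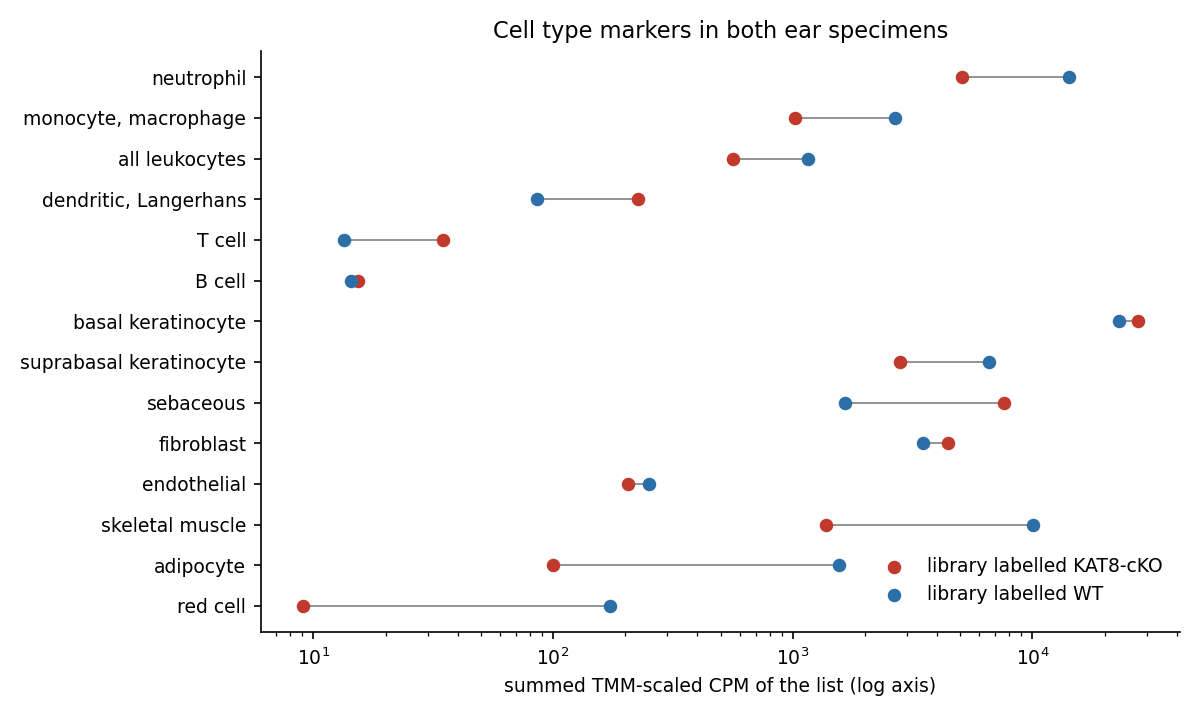
Summed TMM-scaled CPM of each cell type marker list on a log axis, in the KAT8-cKO-labelled library (red) and the WT-labelled library (blue), 1 row per list. Neutrophil genes stand at 5096 CPM in the KAT8-cKO-labelled library and 14150 CPM in the WT-labelled library, and dendritic and Langerhans genes at 226 CPM in the KAT8-cKO-labelled library and 85.8 CPM in the WT-labelled library.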

How the data were processed

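One table of raw counts per Ensembl gene was deposited by the authors, whole numbers without normalization. Per the submitters' processing notes the tools were HISAT2, StringTie 1.3.0 and edgeR and the build mm10, with no role given. The counting tool, its annotation and its use of strand are not stated in the sources. Symbols, positions and exon lengths came from GENCODE M21 (GRCm38), which named 34344 genes. The other 401 held 0.0597% of counts in the KAT8-cKO-labelled library and 0.0783% in the WT-labelled library, and stayed in the totals.

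Counts were scaled to CPM with TMM factors (edgeR 4.0.16, R 4.3.3) of 1.06 (KAT8-cKO) and 0.946 (WT). Log2 ratios used a pseudocount of 1 CPM, which understates low genes, and a gene was called past 2-fold. CPM ratios carry exact Clopper-Pearson intervals, quotients of count ratios exact conditional intervals, and levels Poisson intervals (scipy 1.17.1). Reads carry no molecular identifiers and do not count single molecules, so these cover counting error only. No p-value was computed, because each group had 1 library. The calculation was tested on simulated data.

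The members and gene lists were chosen with earlier results of these data known. Genes named were the members, Kat8, the sex-linked genes, the other IkB genes and, per list, up to 4 with the largest log2 ratios of at least 1, or else the 2 most abundant. Further genes were picked with their values in view, and 1 result is not reported here. Alternatives were plain CPM, DESeq2 size factors (1.42.0), removal of the 50 most abundant genes, other filters, pseudocounts and folds, removal of overlapping genes, and transcript length.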

Additional observations from a re-analysis of the deposited data

How the results depend on the processing

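No paired analysis was possible because each genotype had 1 library. Tnfaip3 stayed the single member past 2-fold, and lower, under plain CPM, DESeq2 size factors, removal of the 50 most abundant genes, both filters, both pseudocounts and removal of overlapping genes, with log2 ratios from -1.62 to -1.43. Of 79 member ratios under these alternatives 73 moved by less than their counting error and 6 further, all 6 with plain CPM, and Rel alone changed sign (0.04 with plain CPM). Of 184 list medians under the same alternatives 55 moved by 0.1 or more. At 1.5-fold 3 members were lower, and over all genes 1966 were higher and 2626 lower. At 1.5-fold with plain CPM, added after seeing the data, 2 members were lower and 1 was higher, and over all genes 2942 were higher and 2067 lower. With a pseudocount of 5 CPM these were 347 higher and 777 lower over all genes at 2-fold, and 11 marker genes were higher against 20. Pathway genes at least 2-fold higher numbered 7 with plain CPM, 7 with a pseudocount of 0.1 CPM, 2 with a filter of 5 CPM and 1 with a pseudocount of 5 CPM, against 4. With the longest transcript as length, 3 members in the KAT8-cKO-labelled library and 2 in the WT-labelled library took another rank. Nfkb1 then held 34.7% of the subunit sum in the KAT8-cKO-labelled library and 33.3% in the WT-labelled library, Rela 32.0% (KAT8-cKO) and 33.8% (WT), Nfkb2 17.8% (KAT8-cKO) and 17.7% (WT), Relb 10.5% (KAT8-cKO) and 8.91% (WT), and Rel 5.04% (KAT8-cKO) and 6.25% (WT). The cause of these changes was not tested beyond the lengths themselves. Depth limits genes with few counts most, among them Icos, Il6, Tnfrsf4, Tlr7 and Defb4. Of the members, Nfkbie had the fewest counts in both libraries.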

Other observations

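Irak1 and Irak2, kinases of the same receptor complex chosen after their values were seen, had ratios on opposite sides of 1. Irak1, on the X chromosome, had 1028 counts in the KAT8-cKO-labelled library and 494 in the WT-labelled library, a log2 ratio of 0.71. Irak2 had 409 counts in the KAT8-cKO-labelled library and 573 in the WT-labelled library, a log2 ratio of -0.80, and its exons overlap those of another gene. The inhibitory kinase gene Irak3 lay at -0.80 as well, and its exons also overlap those of another gene.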
